A study of Homo sapiens with 11 samples.

Results

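The comparison described here set ARPE-19 cells expressing Oct4, Sox2 and Klf4 together (OSK, 2 libraries) against ARPE-19 cells expressing Sox2 without the other factors (Sox2, 2 libraries), and so addressed what Oct4 and Klf4 added to or removed from the Sox2 state. These are 4 of the 11 libraries of the study. They were chosen by their labels alone, and the comparison ran over the 18828 of 60605 listed features with a normalised count of at least 10 in at least 2 of the 11 libraries. ARPE-19 is an established human line derived from retinal pigment epithelium (RPE), the pigmented cell layer beneath the photoreceptors. All lines were stable ARPE-19 lines harvested after 4 days of expression of an open reading frame (ORF). The control line expressed GFP (3 libraries), and the remaining lines expressed Oct4 (2 libraries) or Klf4 (2 libraries) alone. Every group therefore shares the ARPE-19 background and the expression of an ectopic ORF. The labels do not give the species of the ORFs, the promoter that drove them, or whether replicates came from separate cultures or clones, so p-values measure the spread between these libraries, which may be technical. Polyadenylated RNA was sequenced.

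Oct4 (gene symbol POU5F1), Sox2 and Klf4 are transcription factors of the set used to reprogramme somatic cells towards pluripotency. Sox2 and Oct4 are known to bind composite DNA elements side by side, whereas Klf4 is a zinc-finger factor that binds GC-rich sequence and is known for its role in epithelial barrier tissues such as the epidermis. In the RPE, pigment genes are under the control of MITF and OTX2, and loss of epithelial character towards a contractile, matrix-producing state is a known response of the tissue to TGF-beta.

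Recovered read totals ran from 15053300 to 19791775 per library. Of the listed features, 25853 to 26971 were detected in 9 libraries, against 32493 in OSK replicate 1 and 42956 in GFP replicate 1. Olfactory receptor genes, which RPE cells are not known to use, were detected at 23.0% of 405 in OSK replicate 1 and at 67.7% in GFP replicate 1, against 4.94% to 8.15% elsewhere. Because OSK replicate 1 stands apart in this way, counts and named genes were recomputed without it. Of 9 RPE markers, 7 reached a normalised count of 10 in at least 2 libraries, with RPE65 (the visual cycle isomerase) and TTR below that level. None of 5 leukocyte markers did. In bulk RNA, fewer expressing cells and less RNA per cell cannot be told apart.

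The delivered factors matched the labels. POU5F1 had 19020 and 19542 normalised counts in OSK against 282 and 174 in Sox2, and KLF4 had 24470 and 24202 against 101 and 78.8. In limma, POU5F1 rose by 6.44 on the log2 scale (SE 0.18, adjusted p = 6.72e-13), and KLF4 rose by 8.08 (SE 0.31, adjusted p = 2.1e-11). Limma with Benjamini-Hochberg adjustment over all 18828 genes is the test behind every adjusted p given here. OSK against Sox2 set 2 libraries against 2, and contrasts with GFP used its 3 libraries. The spread was estimated from all 11 libraries in a single fit. SOX2 itself was lower in OSK, at 17764 and 17582 against 29106 and 29141 in Sox2 and 82.4, 59.7 and 43.7 in GFP. The OSK and Sox2 libraries did not overlap, and SOX2 fell by 0.72 (SE 0.20, adjusted p = 0.008). That call was lost without OSK replicate 1 (adjusted p = 0.0502) and without OSK replicate 2 (adjusted p = 0.0547). The counts do not separate RNA of the ORF from RNA of the endogenous gene. Each result below compares lines that differ in the SOX2 level as well as in Oct4 and Klf4, and the part of that level in the results was not tested. POU5F1 in OSK was also below its level in the Oct4 line (67326 and 66823), whereas KLF4 in OSK was near that in the Klf4 line (24205 and 22142). The POU5F1 pseudogene POU5F1P3, whose reads may be shared with the parent gene, had 194 and 178 in OSK and 3.37 and 4.28 in Sox2.

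Of the genes tested, 7620 (40.5%) differed between OSK and Sox2 at an adjusted p under 0.05. OSK was higher for 3764 (20.0%) and lower for 3856 (20.5%). When OSK replicate 1 was left out, 2780 genes were higher and 2993 lower, and 2731 and 2906 of these had the same call with all libraries. A log2 difference of at least 1 was reached by 1396 of the higher genes (7.41% of those tested) and 1392 of the lower genes (7.39%). At a log2 difference of at least 2 the shares were 3.14% higher and 2.13% lower. At a log2 difference of at least 4 the balance was uneven, with 131 genes higher in OSK (0.696%) and 43 lower (0.228%). OSK libraries lay entirely above Sox2 libraries for 6867 genes (36.5%) and entirely below them for 6559 (34.8%), so that with 2 libraries a group a lack of overlap on its own was common. The median log2 difference over all genes tested was 0.03. Protein-coding genes were 77.0% of the tested genes that could be matched to a gene type, 86.8% of the higher and 90.1% of the lower genes.

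The largest falls were mostly of genes that the Sox2 line expressed and that stood near their control level in OSK. CALHM4, of the calcium homeostasis modulator channel family, had 1.08 and 1.1 normalised counts in OSK, 435 and 506 in Sox2 and 0, 0 and 0 in GFP. Its relative CALHM5 had 2.17 and 3.3 in OSK, 509 and 554 in Sox2 and 4.97, 1.01 and 3.89 in GFP. OSK held 2 reads of CALHM4 and 5 of CALHM5 over both libraries. The ratio of Sox2 to OSK was 435.4 for CALHM4 (95% interval 120.2 to 3600, exact, counting error only) and 196 for CALHM5 (83.7 to 604). IL7R, the alpha chain of the interleukin-7 receptor, had 17.3 and 14.3 in OSK, 3192 and 2754 in Sox2, 15.9, 0 and 0.97 in GFP, 79 and 75.5 in Oct4 and 4.63 and 3.43 in Klf4. It fell by 7.47 on the log2 scale (SE 0.84, adjusted p = 2.66e-06). TLR4, the receptor for bacterial lipopolysaccharide, had 51 and 62.7 in OSK and 3967 and 3476 in Sox2, and lay between 21.4 and 48.1 in the GFP, Oct4 and Klf4 libraries. Only the Sox2 line was high, and TLR4 fell by 6.01 (SE 0.27, adjusted p = 8.13e-11). ACE, the angiotensin-converting enzyme, had 6.5 and 11 in OSK and 729 and 1509.6 in Sox2, the Sox2 libraries lying apart from each other but far above OSK, and it fell by 6.79 (SE 0.89, adjusted p = 1.47e-05). LEFTY2, a secreted inhibitor of Nodal signalling, had 3.25 and 0 in OSK against 118 and 121 in Sox2 and a ratio of Sox2 to OSK of 72.9 (95% interval 24.7 to 356, from 3 reads in OSK). The Oct4 line was above the control for FLJ16779 and PDGFB. FLJ16779 had 6.5 and 2.2 in OSK, 577 and 346 in Sox2, 105 and 119 in Oct4 and 7.94, 12.1 and 4.86 in GFP. PDGFB, a platelet-derived growth factor chain, had 10.8 and 25.3 in OSK, 841 and 727 in Sox2, 222 and 109.9 in Oct4 and 58.6, 83 and 71 in GFP. For both genes Sox2 was the highest group. SLC66A1L had 16.3 and 25.3 in OSK, 761 and 754 in Sox2 and 126, 110.3 and 130.3 in GFP. The OSK libraries lay below every GFP library for LEFTY2, PDGFB and SLC66A1L. For all of the 10 largest falls the call held without OSK replicate 1, with adjusted p of up to 0.000725.

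**Figure D1:**
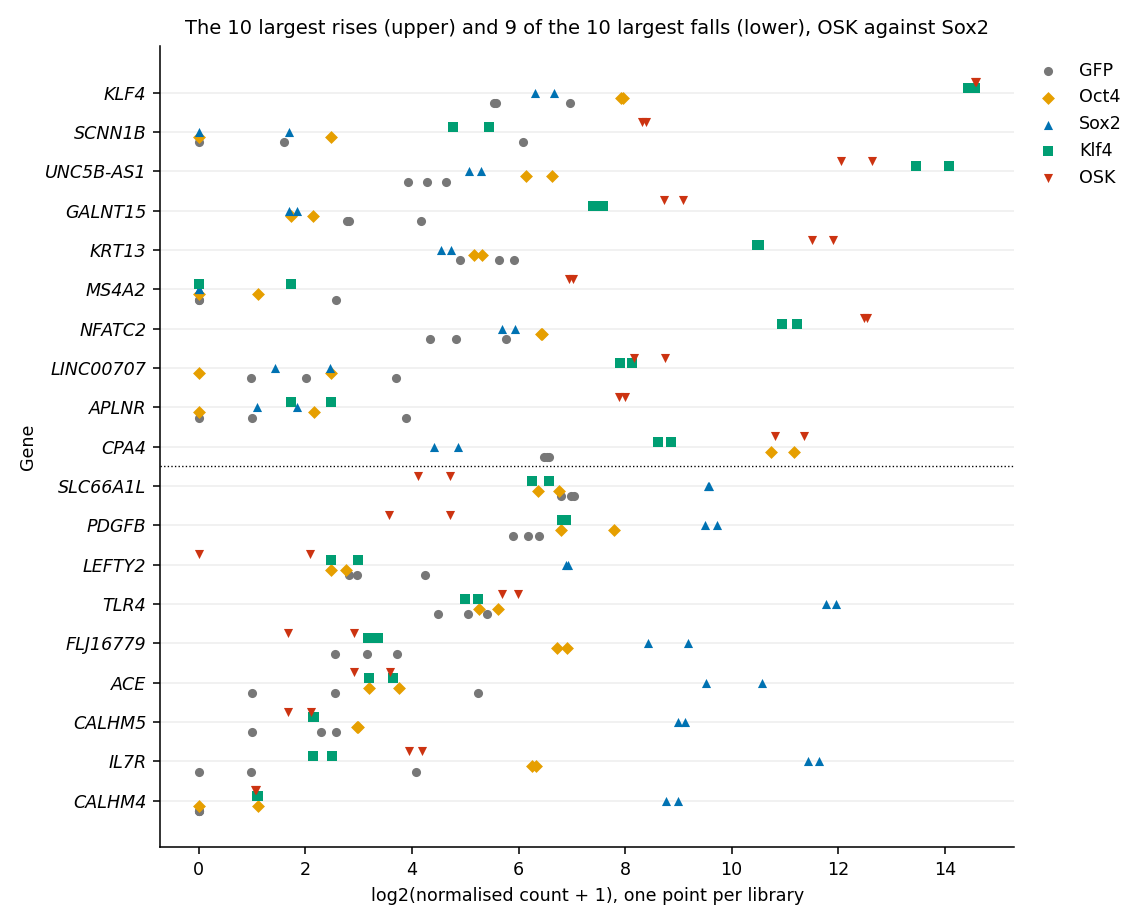
Levels of the 10 genes with the largest rise and 9 of the 10 with the largest fall in OSK against Sox2, chosen by the fitted difference. The horizontal axis is log2(normalised count + 1), each point is a library, and shape and colour give the group. In the lower block the 2 Sox2 points of each gene stand to the right of the OSK points, and in the upper block the OSK points do, often with the Klf4 points beside them.

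The largest rises were mostly of genes that the Klf4 line also expressed. KRT13, a keratin of stratified epithelia, had 3832 and 2912 normalised counts in OSK, 22.4 and 25.7 in Sox2, 28.8, 48.6 and 59.3 in GFP, 34.8 and 38.9 in Oct4 and 1422 and 1469 in Klf4. OSK was above Klf4 and both were far above the rest, and KRT13 rose by 7.06 on the log2 scale (SE 0.25, adjusted p = 6.47e-12). NFATC2, a calcineurin-regulated transcription factor, had 5742 and 5964 in OSK, 50.5 and 59.9 in Sox2 and 1965 and 2381 in Klf4, and it rose by 6.71 (SE 0.30, adjusted p = 8.13e-11). UNC5B-AS1 had 6338 and 4230.2 in OSK, 38.1 and 32.5 in Sox2 and 17337 and 11242 in Klf4. It lies antisense to UNC5B, a netrin receptor gene that was itself at 12413 and 10449 in OSK and 341 and 599 in Sox2, and as the use of strand in counting is not given the reads of the pair cannot be told apart. GALNT15, a glycosyltransferase of mucin-type O-glycosylation, had 539.9 and 426 in OSK and 192 and 168 in Klf4 against 2.24 and 2.57 in Sox2, a ratio of OSK to Sox2 of 199 (95% interval 85.0 to 614, from 5 reads in Sox2). LINC00707, a long noncoding RNA, had 430.4 and 286 in OSK, 4.49 and 1.71 in Sox2 and 279.9 and 239.9 in Klf4. SCNN1B, the beta subunit of the epithelial sodium channel, had 319 and 335 in OSK, 2.24 and 0 in Sox2, 42.8 and 26.3 in Klf4 and 66.5, 2.02 and 0 in GFP. The ratio of OSK to Sox2 was 337 (95% interval 92.8 to 2787, from 2 reads in Sox2), and the high GFP value came from GFP replicate 1 alone. CPA4, a secreted carboxypeptidase, followed another order, at 2609 and 1787 in OSK, 20.2 and 28.3 in Sox2, 1713 and 2296 in Oct4, 466 and 391 in Klf4 and 94.3, 88 and 91.4 in GFP. OSK and Oct4 overlapped there, with Klf4 between them and the control, and CPA4 rose by 6.44 (SE 0.19, adjusted p = 8.87e-13).

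Some genes rose in OSK that neither the Oct4 nor the Klf4 line expressed. MS4A2, the beta chain of the high-affinity IgE receptor, had 129 and 123 normalised counts in OSK, 0 and 0 in Sox2, 1.16 and 0 in Oct4, 2.31 and 0 in Klf4 and 4.97, 0 and 0 in GFP. It was at least 42.5-fold higher in OSK than the Sox2 floor of 3 reads per library. APLNR, the apelin receptor, had 256 and 235 in OSK, 1.12 and 2.57 in Sox2, 3.48 and 0 in Oct4 and 2.31 and 4.57 in Klf4, a ratio of OSK to Sox2 of 126 (95% interval 49.1 to 466, from 4 reads in Sox2). For both genes the difference of OSK from Sox2 exceeded that of Klf4 from GFP in limma, with adjusted p = 0.00199 and 0.00473, and that of Oct4 from GFP, with adjusted p = 0.000824 and 0.000869. The sizes of these differences rest on the pseudocount and are not given. AZGP1 and TP73, a p53 family member, were picked after their values were seen. Both were high in OSK, but low rather than absent in the Oct4 or Klf4 line. AZGP1 was at 362 and 396 in OSK and 4.49 and 2.57 in Sox2, with Oct4 and Klf4 means of 19 and 2.88. TP73 was at 446 and 394 in OSK and 12.3 and 17.1 in Sox2, with Oct4 and Klf4 means of 8.68 and 13.2. All 10 of the largest rises, KLF4 included, kept their call without OSK replicate 1, with adjusted p of up to 0.0062. Of the 71 genes named by rule, 68 did, the exceptions being SOX2, RAB27A and HES4.

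Across 22 gene lists with 667 tested genes, 405 differed, 210 of them higher and 195 lower in OSK. Counts per list are to be read against the 20.0% higher and 20.5% lower of all genes. The lists at either end were those of mitosis and of contractile genes.

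**Figure D2:**
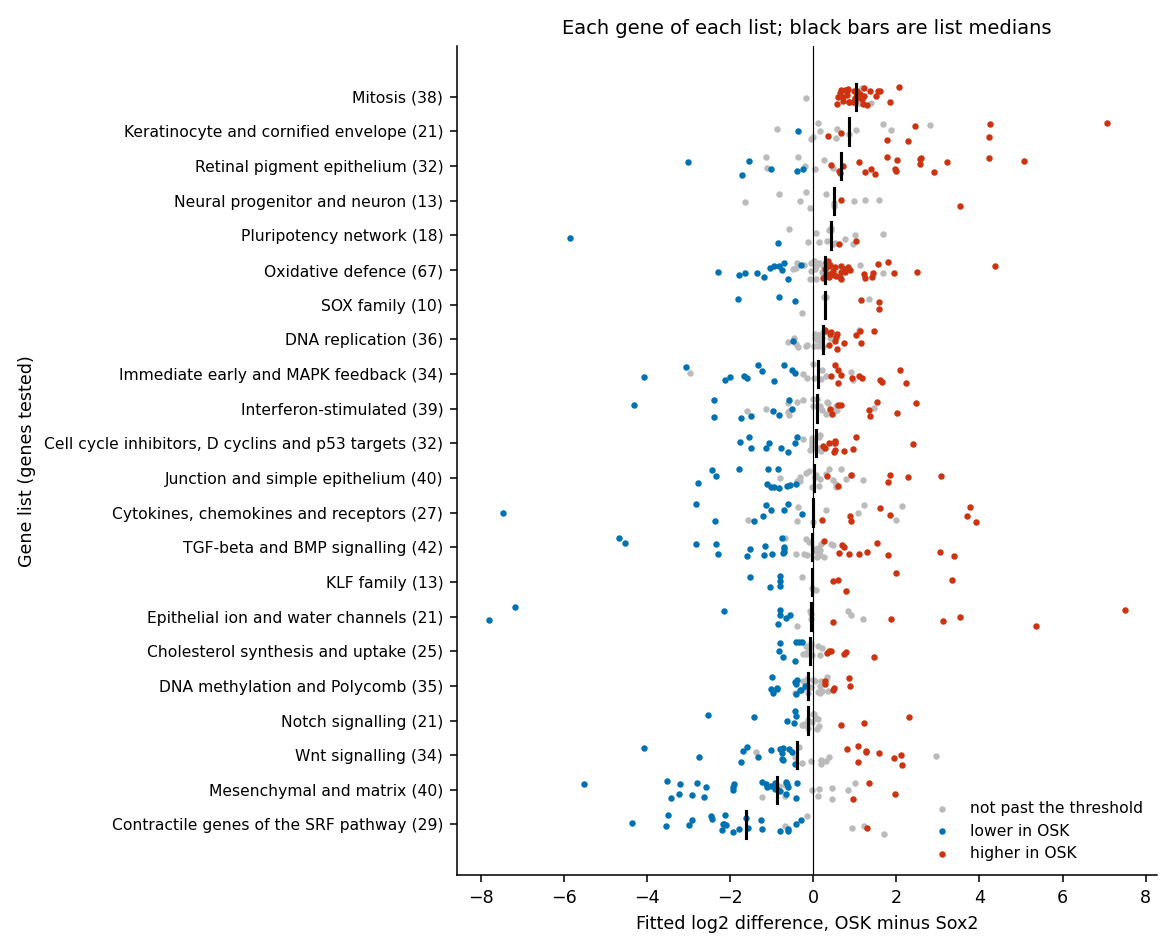
Fitted log2 difference of OSK minus Sox2 for every tested gene of 22 lists. Each point is a gene, red where higher in OSK, blue where lower and grey where the adjusted p was 0.05 or more, and black bars are list medians, ordered from -1.62 for contractile genes at the bottom to 1.02 for mitosis at the top. Most other lists hold points on both sides of 0.

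Contractile genes of the SRF pathway were mostly lower in OSK. SRF and its MRTF cofactors are known to drive genes of the actin cytoskeleton through a promoter element called the CArG box. Of 29 genes tested, 23 were lower (79.3%, against 20.5% of all genes), 1 was higher and 5 did not pass, with a median log2 difference of -1.62 (0.03 over all genes tested). TAGLN, which encodes the actin-binding protein transgelin, had 594 and 594 normalised counts in OSK, 12300 and 12135 in Sox2, 1999, 5105 and 3551 in GFP, 10657 and 10954 in Oct4 and 844 and 996 in Klf4. OSK was the lowest group, below every Klf4 and GFP library, and TAGLN fell by 4.36 on the log2 scale (SE 0.26, adjusted p = 2.06e-09). ACTA2, smooth muscle actin, had 176 and 153 in OSK and 1752 and 2106 in Sox2, and fell by 3.54. CCN2, a matricellular protein and a common readout of YAP and TGF-beta activity, had 6724 and 8848 in OSK, 86897 and 86921 in Sox2 and 8748 and 10022 in Klf4, and fell by 3.49. TPM1 (tropomyosin), VCL (vinculin) and FLNA (filamin A) fell by 2.43, 2.19 and 1.78. SRF itself fell by 0.41 (SE 0.11, adjusted p = 0.0055), and MYOCD, a cofactor of SRF, fell by 2.46. MYLK, the myosin light chain kinase gene, was the member that rose. It had 26852 and 25180 in OSK, 10408 and 10690 in Sox2 and 40726, 42674 and 46452 in GFP, so that OSK lay between Sox2 and the control, and it rose by 1.30 (SE 0.09, adjusted p = 8.27e-09). In the other lines the same list had 2 genes higher and 20 lower in Klf4 than in GFP (17.6% and 16.0% of all genes tested were higher and lower there, 33.5% in all), and 18 higher and 4 lower in Oct4 than in GFP (20.1% and 17.2%, 37.3% in all). Against GFP, Sox2 had 15 higher and 5 lower (21.7% and 19.9%, 41.6% in all), and OSK had 2 higher and 21 lower (19.7% and 20.0%, 39.7% in all). Those last comparisons share libraries with OSK against Sox2.

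Promoters of this list were read for the CArG box (searched on both strands) because its members moved together. Promoter sequences are from RefSeq on GRCh38.p14 and cover the 250 bases before each listed start, and a gene can have several starts. The table held 24 of the 29 genes with 50 promoters, of which 14 (28%), from 12 genes, held a CArG box. Among 17479 promoters of 12054 tested genes the share was 1.06%. The list was made of genes of the SRF pathway, which is known to act through this box. A raised share therefore goes with membership of the list and does not bear on why its genes moved. FLNA and CNN2 (calponin 2), which fell, and MYLK, which rose, each had a box, shown in capitals, in the windows chrX:154374635-154374884 (- strand), chr19:1026358-1026607 (+ strand) and chr3:123620549-123620798 (- strand).
FLNA: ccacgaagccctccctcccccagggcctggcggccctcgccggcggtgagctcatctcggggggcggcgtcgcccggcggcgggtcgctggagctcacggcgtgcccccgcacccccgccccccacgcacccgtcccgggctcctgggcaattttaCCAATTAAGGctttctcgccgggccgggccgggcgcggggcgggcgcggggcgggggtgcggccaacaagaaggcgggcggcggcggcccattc
CNN2: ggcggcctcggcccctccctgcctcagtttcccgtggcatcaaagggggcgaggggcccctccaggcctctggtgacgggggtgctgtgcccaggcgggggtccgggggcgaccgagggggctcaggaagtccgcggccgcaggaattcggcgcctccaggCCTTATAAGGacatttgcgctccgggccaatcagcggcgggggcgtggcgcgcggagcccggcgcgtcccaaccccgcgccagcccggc
MYLK: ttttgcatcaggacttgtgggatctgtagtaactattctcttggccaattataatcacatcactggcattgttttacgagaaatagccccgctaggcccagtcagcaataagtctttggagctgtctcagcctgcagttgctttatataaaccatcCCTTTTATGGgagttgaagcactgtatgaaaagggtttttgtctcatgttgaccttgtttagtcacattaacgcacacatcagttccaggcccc
The box starts at -94 in FLNA, -89 in CNN2 and -94 in MYLK, counted from the start on the gene's strand. A match is a description of the letters and not a measured binding site, and the presence of the box did not separate MYLK from the falling members.

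Mesenchymal and matrix genes were lower with them. Of 40 tested, 26 were lower (65.0%), 3 were higher and 11 did not pass, with a median of -0.87. COL1A1, a chain of type I collagen, had 557 and 796 normalised counts in OSK, 8369 and 7029 in Sox2, 2884, 4845 and 3841 in GFP, 3643 and 2521 in Oct4 and 960.0 and 1357 in Klf4. The Sox2 libraries were the highest of all and the OSK libraries the lowest, and COL1A1 fell by 3.52 (SE 0.23, adjusted p = 4.54e-09). FN1 (fibronectin) had 3450.5 and 4298 in OSK and 47756 and 35718 in Sox2, and fell by 3.42. SPARC, THBS1 and MMP2, secreted matrix proteins and a matrix protease, fell by 2.59, 2.79 and 2.93, the basement membrane collagen genes COL4A1 and COL4A2 by 2.63 and 1.93, and the intermediate filament gene VIM by 1.22. CDH2, the N-cadherin gene, fell by 1.93, but CDH11, another cadherin of mesenchymal cells, had 7057 and 6994 in OSK, 1718 and 1896 in Sox2 and 8626 and 7088 in Oct4 and rose by 1.96 (SE 0.10, adjusted p = 3.91e-10). For CDH11 the OSK libraries lay just below the Oct4 libraries, and Klf4 (1898 and 2214) overlapped with GFP (2105, 2319 and 2412). ZEB1, a transcription factor of epithelial-mesenchymal transition, rose too, by 0.95, whereas ZEB2 fell by 0.60 and TWIST1 by 0.93. Summed over 6 fibroblast markers, OSK libraries had 577 to 808 and Sox2 libraries 7097 to 8427, nearly all of it COL1A1. POSTN had 4.34 and 3.3 in OSK and 34.8 and 55.7 in Sox2, LUM had 1.08 and 0 and 12.3 and 7.71, COL3A1 had 5.42 and 1.1 and 4.49 and 0.86, PDGFRA had 6.5 and 4.4 and 6.73 and 3.42, and DCN had 2.17 and 3.3 and 0 in both Sox2 libraries. The part of fibroblast-like cells in the matrix result was not tested.

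Genes of the TGF-beta and BMP pathways changed in both directions. TGF-beta and activin ligands signal through SMAD2 and SMAD3, BMPs through SMAD1, SMAD5 and SMAD9, and the ID genes are standard targets of the BMP branch. Of 42 genes tested, 11 were higher (26.2%) and 15 lower (35.7%) in OSK, with a median of -0.03. Among ligands and their latency proteins, INHBA (an activin subunit) had 72.6 and 57.2 in OSK, 1565 and 1777 in Sox2, 36.7, 76.9 and 28.2 in GFP, 209 and 264 in Oct4 and 34.7 and 52.6 in Klf4. OSK overlapped with the control and Sox2 stood above all, and INHBA fell by 4.67 on the log2 scale (SE 0.34, adjusted p = 1.78e-08). TGFB1 and TGFB2 fell by 2.35 and 1.17, GDF6 by 4.54 and the latent TGF-beta binding proteins LTBP1 and LTBP2 by 2.83 and 2.30. BMP2 and BMP4 rose by 1.11 and 0.75, and the BMP antagonist NOG by 1.53. Among receptors, TGFBR2 and TGFBR1 fell by 0.99 and 0.71. The co-receptor gene TGFBR3 had 2094 and 2240.5 in OSK, 251 and 170.4 in Sox2, 2533, 1709.7 and 1969 in GFP, 569 and 453 in Oct4 and 2849 and 2958 in Klf4, so that OSK overlapped with the control, and rose by 3.38 (SE 0.17, adjusted p = 3.7e-10). Among targets, ID1 had 1792 and 1856 in OSK and 197 and 241 in Sox2 and rose by 3.06 (SE 0.10, adjusted p = 2.52e-12), with ID2 and ID4 up by 1.29 and 1.79. ID3 did not pass, at 0.05. The feedback and target genes SMAD7 and PMEPA1 fell by 1.17 and 1.52.

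**Figure D3:**
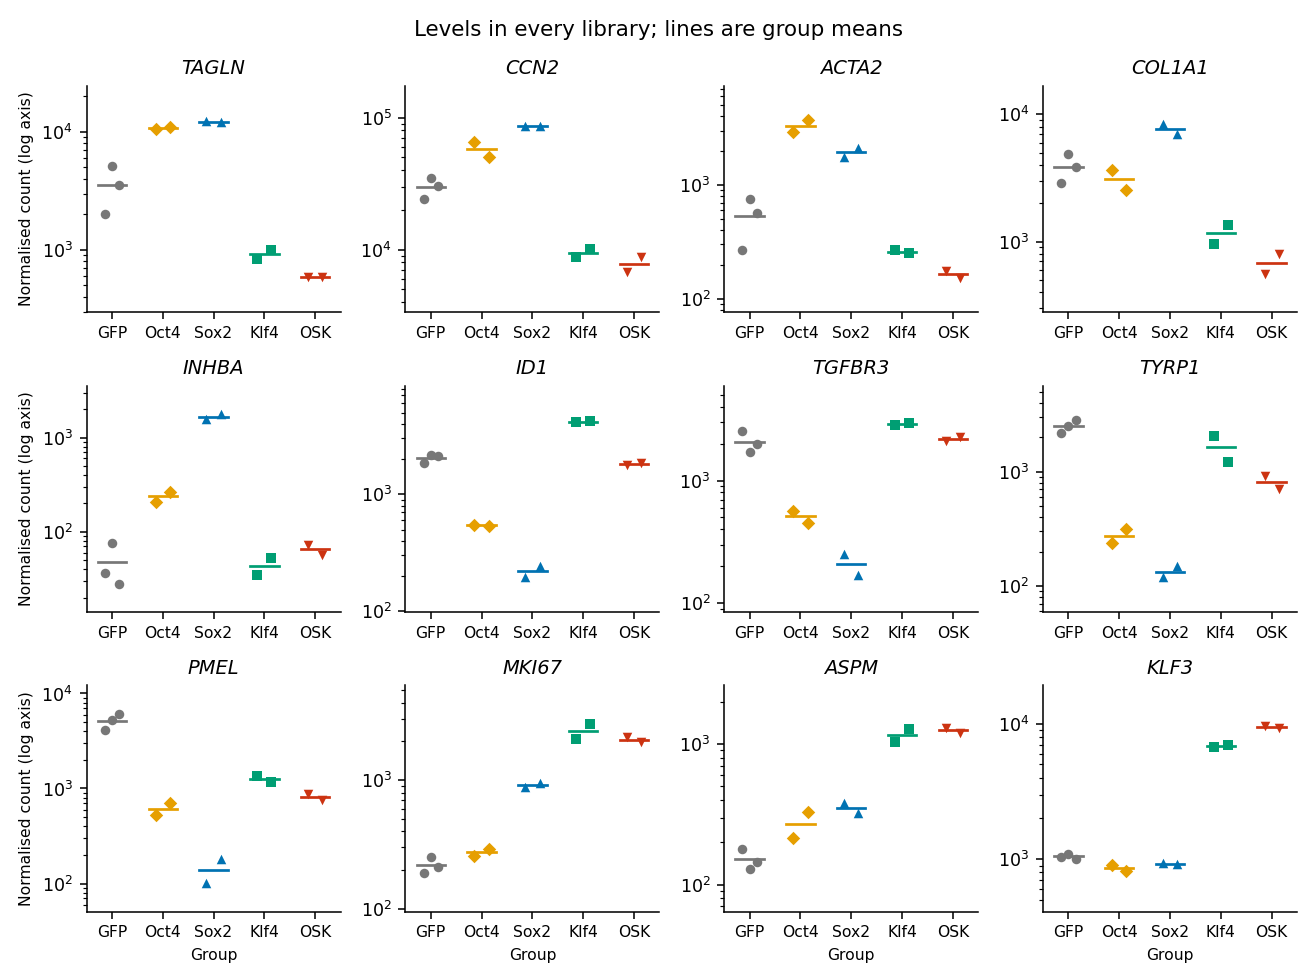
Normalised counts, on a log axis, of 12 genes of the contractile, matrix, TGF-beta, pigment, mitosis and KLF lists in all 11 libraries. Points are libraries and lines are group means. In the panels for TAGLN, CCN2, ACTA2 and COL1A1 the OSK and Klf4 means are the lowest, in those for MKI67 and ASPM they are the highest, and TYRP1 and PMEL in OSK stand above Sox2 and below GFP.

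Mitosis genes were almost uniformly higher in OSK. Of 38 tested, 33 were higher (86.8%, against 20.0% of all genes), none was lower and 5 did not pass, with a median of 1.02. Fewer passed when any single OSK or Sox2 library was left out, and none was then lower. ASPM, a spindle pole protein, had 1304 and 1207 normalised counts in OSK, 378 and 325 in Sox2, 181, 128 and 145 in GFP, 215 and 329.6 in Oct4 and 1041 and 1288 in Klf4. OSK and Klf4 overlapped at the top with Sox2 between them and the control, and ASPM rose by 1.84 on the log2 scale (SE 0.18, adjusted p = 7.3e-07). UBE2C, which with the anaphase-promoting complex marks mitotic proteins for degradation, had 324 and 299 in OSK, 109 and 94.2 in Sox2 and 377 and 468 in Klf4, and rose by 1.61 (SE 0.18, adjusted p = 2.46e-06). MKI67, the proliferation marker Ki-67, rose by 1.18, the kinase gene PLK1 by 1.37, the mitotic transcription factor FOXM1 by 1.20 and TOP2A (topoisomerase II alpha) by 1.22. In the other lines this list had 36 genes higher in Klf4 and 13 in Oct4 than in GFP (17.6% and 20.1% of all genes), with medians of 2.56 and 0.31. It had 33 higher in Sox2 and 36 in OSK than in GFP (21.7% and 19.7% of all genes), with medians of 1.34 and 2.45.

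DNA replication genes moved less. Of 36 tested, 14 were higher (38.9%, against 20.0% of all genes) and 1 was lower (2.78%, against 20.5%), with a median of 0.24. TK1 (thymidine kinase) had 988 and 919.5 in OSK, 353 and 336 in Sox2 and 62.6, 109 and 79.7 in GFP, and rose by 1.46 (SE 0.18, adjusted p = 9.1e-06). E2F1, a transcription factor of S-phase genes, had 801 and 822, 388 and 342 and 70.5, 76.9 and 64.2 in the same groups, and rose by 1.15. LIG1 (DNA ligase I) was the member that fell, by 0.49. RRM2, the ribonucleotide reductase subunit, did not pass, at 0.24. Among 32 cell cycle inhibitors, D cyclins and p53 targets, 11 were higher (34.4%) and 9 lower (28.1%), against 20.0% and 20.5% of all genes. With TMM scaling over all features 7 were higher, and of all 3764 higher genes 2737 kept their call. CDKN2B, the inhibitor p15 and a TGF-beta target, had 2258 and 2590.3 in OSK against 8501 and 7865 in Sox2 and fell by 1.76 (SE 0.13, adjusted p = 2.68e-08). CCND1 (cyclin D1) and its partner CDK6 fell by 1.49 and 1.55, and CDKN1A (p21) by 0.60. CDKN2C, the inhibitor p18, rose by 1.02 and CDKN1B (p27) by 0.51.

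Since the mitosis genes moved together, their promoters were read for the cell cycle homology region (CHR, letters TTTGAA, both strands), known as the element of late cell cycle promoters. It was present in 21 of 38 promoters (55.3%), from 19 of the 32 genes found in the table, and in 9.27% of the promoters of all tested genes. Mitosis genes are genes of the late cell cycle, so a raised share goes with the choice of the list. It does not bear on why they rose. The windows of PLK1 (chr16:23678639-23678888, + strand) and ASPM (chr1:197146670-197146919, - strand) show it in capitals, at -29 as TTTGAA in PLK1 and at -113 as its reverse complement in ASPM.
PLK1: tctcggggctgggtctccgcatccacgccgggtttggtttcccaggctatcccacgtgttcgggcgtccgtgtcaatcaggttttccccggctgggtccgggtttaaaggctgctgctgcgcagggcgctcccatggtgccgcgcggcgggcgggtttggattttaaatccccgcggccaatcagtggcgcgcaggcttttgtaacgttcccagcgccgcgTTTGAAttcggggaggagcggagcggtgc
ASPM: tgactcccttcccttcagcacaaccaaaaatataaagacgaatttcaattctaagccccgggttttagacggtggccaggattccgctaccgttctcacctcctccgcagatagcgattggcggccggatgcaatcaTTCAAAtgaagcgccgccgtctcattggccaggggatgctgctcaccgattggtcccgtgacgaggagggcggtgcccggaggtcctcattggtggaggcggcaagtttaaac

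Most RPE genes that passed the test were higher in OSK than in Sox2, and several pigment genes stood between Sox2 and the control. Against GFP, OSK had 6 of the list higher and 16 lower (19.7% and 20.0% of all genes), and Sox2 had 5 and 15 (21.7% and 19.9%). Of 32 RPE genes tested, 19 were higher in OSK than in Sox2 (59.4%, against 20.0% of all genes) and 6 lower (against 20.5%), with a median of 0.67. Without OSK replicate 1 there were 3 lower genes, as without OSK replicate 2, and 2 without Sox2 replicate 2. TYRP1, an enzyme of melanin synthesis, had 923 and 709 normalised counts in OSK, 119 and 149 in Sox2, 2168, 2491 and 2813 in GFP, 236 and 312 in Oct4 and 2056 and 1204 in Klf4. OSK lay between Sox2 and GFP with no overlap with either, and TYRP1 rose by 2.59 on the log2 scale (SE 0.21, adjusted p = 6.03e-08). PMEL, the structural protein of melanosome fibrils, showed the same order at 868 and 749 in OSK, 101 and 179.8 in Sox2 and 4094, 5281 and 6067 in GFP, and rose by 2.57 (SE 0.22, adjusted p = 1.03e-07). TYR (tyrosinase) had 108 and 64.9 in OSK, 8.98 and 19.7 in Sox2 and 349.6, 513 and 578 in GFP, and GPR143 (the ocular albinism receptor) had 678 and 629, 137 and 192 and 1038, 1237 and 1334, with rises of 2.56 and 2.00. TRPM1, a cation channel gene, had 87.8 and 61.6 in OSK, 3.37 and 2.57 in Sox2 and 402, 775 and 1051 in GFP. SLC45A2, a melanosome transporter, rose from 3.37 and 5.14 in Sox2 to 58.5 and 38.5 in OSK, where it overlapped with GFP (59.6, 48.6 and 89.4). Among regulators, MITF rose by 1.11 and stayed below the control (1590.3 and 1732 in OSK and 3263, 3354 and 3602 in GFP). OTX2 rose by 0.71 to 2006 and 1932, overlapping with GFP (1887, 1804 and 1952), whereas PAX6 did not pass, at 0.05. Among secreted products, SERPINF1 (PEDF) and the metalloproteinase inhibitor TIMP3 rose by 1.99 and 1.96. Genes of retinoid handling differed among themselves: RDH11 fell by 0.26, RDH5 rose by 1.24, and LRAT and RLBP1 did not pass, RLBP1 at 3.25 and 3.3 in OSK and 8.98 and 7.71 in Sox2. BEST1, the bestrophin chloride channel, fell by 1.02 and RAB27A, a melanosome transport GTPase, by 0.38, the opposite direction to the pigment genes above (adjusted p = 0.0189), the latter call being lost in 5 of the alternatives. SOX10, MLANA and DCT, markers of neural-crest melanocytes, summed to 25.3 to 29.3 in OSK and 31.4 to 40.2 in Sox2 libraries.

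Promoters of this list held the M-box (letters TCATGTG, both strands), the element recognised by MITF, in 4 of 43 (9.30%), against 1.53% of the promoters of all tested genes. The list holds pigment genes known to be under the control of MITF, so a raised share goes with its choice. The share does not bear on why pigment genes were higher in OSK. TYRP1 (chr9:12693135-12693384, + strand) and GPR143 (chrX:9765848-9766097, - strand) are shown with the M-box in capitals, at -145 in TYRP1 and, as its reverse complement, at -61 and -33 in GPR143.
TYRP1: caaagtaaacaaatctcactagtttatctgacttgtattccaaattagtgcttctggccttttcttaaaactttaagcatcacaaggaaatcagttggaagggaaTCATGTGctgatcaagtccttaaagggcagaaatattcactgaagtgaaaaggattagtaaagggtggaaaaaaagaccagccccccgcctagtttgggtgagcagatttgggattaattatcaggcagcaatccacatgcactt
GPR143: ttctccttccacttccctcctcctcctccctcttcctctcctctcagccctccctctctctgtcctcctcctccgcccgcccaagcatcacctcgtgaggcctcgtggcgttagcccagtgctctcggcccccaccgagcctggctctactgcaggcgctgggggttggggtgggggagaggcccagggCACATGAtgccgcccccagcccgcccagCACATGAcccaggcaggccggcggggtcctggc

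Keratinocyte genes that passed the test were mostly higher in OSK than in Sox2, but not than in GFP. Against GFP, OSK had 5 of the list higher and 5 lower (19.7% and 20.0% of all genes). Sox2 had 2 and 9 (21.7% and 19.9%), Oct4 1 and 7 (20.1% and 17.2%) and Klf4 10 and 1 (17.6% and 16.0%). Of 21 keratinocyte and cornified envelope genes tested, 8 were higher (38.1%) and 1 was lower (4.76%) in OSK than in Sox2. Over all genes these shares were 20.0% and 20.5%. The median was 0.86. It was 0.54 with genes at the floor of 3 reads per library in either group set to their bound, and those at the floor in both set to 0. There were 5 higher without OSK replicate 2 or without Sox2 replicate 1. FLG (filaggrin) had 1312 and 1053 normalised counts in OSK, 68.4 and 56.5 in Sox2, 56.6, 21.2 and 20.4 in GFP, 61.5 and 66.4 in Oct4 and 192 and 167 in Klf4. OSK was the highest group, above Klf4, and FLG rose by 4.22 on the log2 scale (SE 0.35, adjusted p = 7.69e-08). TGM1, the transglutaminase of the cornified envelope, had 472 and 342 in OSK, 65.1 and 81.3 in Sox2 and 4407 and 4088 in Klf4, and rose by 2.45. KRT14, a keratin of basal keratinocytes, had 3.25 and 2.2 in OSK against 111 and 147 in Klf4, and KRT15 had 2.17 and 2.2 against 28.9 and 19.4, both being close to 0 in OSK. Keratin genes have near-identical relatives, so their counts may share reads. KRT10 fell by 0.38 (adjusted p = 0.0142), a call lost without OSK replicate 2 and without either Sox2 replicate.

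Among 40 junction and simple epithelium genes, 7 were higher (17.5%) and 13 lower (32.5%), with a median of 0.01. CGN, the tight junction protein cingulin, had 612 and 541 normalised counts in OSK, 64 and 71.9 in Sox2, 112, 85 and 78.7 in GFP and 568 and 588 in Klf4. OSK and Klf4 overlapped, and CGN rose by 3.07 (SE 0.18, adjusted p = 1.38e-09). CDH1, the E-cadherin gene, had 71.5 and 47.3 in OSK, 328 and 315 in Sox2, 199.6, 259 and 245 in GFP, 281 and 263 in Oct4 and 187 and 219 in Klf4, the lowest of all groups in OSK, and fell by 2.44 (SE 0.18, adjusted p = 2.62e-08). The protease inhibitor pair SPINT1 and SPINT2 moved in opposite directions. SPINT1 had 247 and 238 in OSK, 68.4 and 65.1 in Sox2 and 186 and 164 in Oct4 and rose by 1.84, whereas SPINT2 had 601 and 629 in OSK and 2934 and 3278 in Sox2 and fell by 2.33. The simple keratins KRT8 and KRT18 fell by 1.03 and 0.64, the desmosomal DSG2 and PKP2 by 0.95 and 1.10, and DSP (desmoplakin) rose by 0.60.

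Pluripotency genes other than the delivered factors held calls in both directions. Of 18 that passed the filter on low values, 2 were higher and 2 lower (11.1% each way, against 20.0% and 20.5% of all genes). The number higher was larger without OSK replicate 1. MYC, a growth regulator, had 1538 and 1529 normalised counts in OSK, 716 and 796 in Sox2 and 1601, 1889.8 and 1905 in GFP, so that OSK was just below the control, and rose by 1.02 (SE 0.09, adjusted p = 1.73e-07). FGFR1, a fibroblast growth factor receptor, rose by 0.61, and TCF7L1, a repressor of Wnt target genes, fell by 0.84. LEFTY2 was the other fall. NANOG, a core pluripotency factor, had 8.67 and 12.1 in OSK, 5.61 and 0.86 in Sox2 and 16.9, 14.2 and 14.6 in GFP and did not pass (adjusted p = 0.0546). LIN28A, an RNA-binding protein of pluripotent cells, had 136 and 201, 154 and 104 and 311, 279 and 224 in those groups and did not pass either. Of 13 neural genes tested, 2 were higher (15.4%, against 20.0% of all genes) and none was lower (against 20.5%). MAP2, a neuronal microtubule-associated protein, had 7558 and 8235 in OSK, 5049 and 4964 in Sox2, 2468, 2007 and 2153 in GFP, 2012 and 2258 in Oct4 and 1205 and 1433 in Klf4, the highest of all groups in OSK, and rose by 0.66 (SE 0.10, adjusted p = 7.68e-05). TUBB3 and NES, markers of neurons and neural progenitors, did not pass, at -0.08 and 0.30.

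Oxidative defence genes, which the study's design names as its candidates, were higher in OSK more often than lower. Of 67 tested, 32 were higher (47.8%, against 20.0% of all genes) and 12 lower (17.9%, against 20.5%), with a median of 0.28. With TMM scaling over all features, 22 were higher and 11 lower. Calls over all genes dropped with that scaling too: 2737 of the 3764 higher and 3357 of the 3856 lower genes kept theirs. Against GFP, OSK had 25 higher and 17 lower (19.7% and 20.0% of all genes), and Sox2 had 19 and 22 (21.7% and 19.9%). ALDH1A3, a retinaldehyde and aldehyde dehydrogenase, had 15935 and 16352 normalised counts in OSK, 4319.6 and 4998 in Sox2, 24240, 25865 and 27077 in GFP, 9453 and 9983 in Oct4 and 22723 and 24448 in Klf4. OSK stood between Sox2 and the control, and ALDH1A3 rose by 1.80 on the log2 scale (SE 0.09, adjusted p = 1.95e-10). TXNIP, an inhibitor of thioredoxin, had 616 and 506 in OSK, 130.2 and 160.1 in Sox2 and 702 and 451 in Klf4, OSK and Klf4 overlapping, and rose by 1.94 (SE 0.23, adjusted p = 5.99e-06). GSTA4, the glutathione transferase for the lipid peroxidation product 4-hydroxynonenal and a gene named in the series title, had 515 and 464 in OSK, 169 and 194 in Sox2, 88.4, 127 and 125 in GFP, 183 and 192 in Oct4 and 177 and 129 in Klf4. The OSK libraries were above all others, and GSTA4 rose by 1.43 (SE 0.19, adjusted p = 1.52e-05). PRDX6 (peroxiredoxin 6) and GSR (glutathione reductase) were likewise highest in the OSK or Oct4 lines. PRDX6 had 8530.2 and 8294 in OSK, 2993 and 3364 in Sox2 and 4385 and 4877 in Oct4, and GSR had 2740.4 and 2521, 1082 and 1163 and 2854 and 2769, with rises of 1.41 and 1.23. NFE2L2 (NRF2), the transcription factor of this programme, rose by 0.77 and its inhibitor KEAP1 by 0.48, CAT (catalase) by 0.66 and GPX3 by 1.25. The NRF2 target genes did not move as one: HMOX1 (haem oxygenase 1) rose by 2.49 and GCLC by 0.49, whereas NQO1, GCLM, TXN and SLC7A11 did not pass, at 0.01, 0.06, -0.07 and -0.40. ME1 (cytosolic malic enzyme) had 188 and 180.4 in OSK and 924 and 901 in Sox2 against 149.9, 176 and 156 in GFP, near the control in OSK, and fell by 2.30 (SE 0.16, adjusted p = 8.9e-09). The methionine sulfoxide reductase genes MSRA, MSRB2 and MSRB3 fell by 1.03, 1.18 and 1.65.

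Immediate early and MAPK feedback genes split evenly, with 12 higher and 12 lower of 34 tested (35.3% each way). EGR2, an immediate early zinc-finger factor, had 15.2 and 14.3 in OSK, 287 and 241 in Sox2 and 21.9, 31.4 and 22.4 in GFP, with only Sox2 high, and fell by 4.07 on the log2 scale (SE 0.44, adjusted p = 2.01e-06). NR4A3, an orphan nuclear receptor, had 197 and 180.4 in OSK, 33.7 and 46.2 in Sox2 and 249.8 and 216 in Klf4 and rose by 2.23 (SE 0.25, adjusted p = 2.62e-06). JUN and FOSL1, members of the AP-1 family, fell by 1.25 and 1.32, and their relatives JUNB and FOS rose by 1.16 and 0.93. The MAPK phosphatases DUSP1 and DUSP5 rose by 1.65 and 2.08. Wnt pathway genes were lower more often than higher, 15 (44.1%) against 9 (26.5%) of 34, with a median of -0.40. Among ligands and agonists, WNT5B had 26 and 14.3 in OSK and 142 and 130.2 in Sox2 and fell by 2.75, RSPO3 had 1.08 and 3.3 and 40.4 and 59.9, and WNT3 fell by 1.74, whereas WNT9A rose by 1.57. Among receptors FZD1 and FZD6 fell by 1.59 and 1.03, and FZD4 and ROR2 rose by 1.27 and 1.95. The target and feedback genes AXIN2 and ZNRF3 fell by 1.34 and 1.70, and the secreted antagonists DKK1 and SFRP1 rose by 2.14 and 1.26. DKK1 had 1410.3 and 1549.8 in OSK, 318 and 354 in Sox2 and 2578, 3045 and 2787 in GFP, so OSK was between them. In the Notch pathway 3 were higher (14.3%) and 6 lower (28.6%) of 21, against 20.0% and 20.5% of all genes. The target HEY1 had 33.6 and 28.6 in OSK, 204 and 165 in Sox2 and 21.9, 25.3 and 29.2 in GFP and fell by 2.53 (SE 0.28, adjusted p = 2.48e-06), while the target HES4 rose by 0.68 (adjusted p = 0.0268), a call lost without OSK replicate 1, without OSK replicate 2, without Sox2 replicate 1 and with no filter. The Notch counts themselves fell to 1 higher without OSK replicate 1 or Sox2 replicate 1, and to 3 lower without Sox2 replicate 2.

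Cytokine and interferon genes held members on both sides. Of 27 cytokine, chemokine and receptor genes, 8 were higher (29.6%, against 20.0% of all genes) and 10 lower (37.0%, against 20.5%). ACKR3, an atypical receptor for CXCL12, had 3664 and 3732 normalised counts in OSK, 328 and 219 in Sox2, 479, 442 and 369 in GFP and 3505 and 3967 in Klf4. OSK and Klf4 overlapped, and ACKR3 rose by 3.78 on the log2 scale (SE 0.15, adjusted p = 2.9e-11). IL6R, the interleukin-6 receptor gene, rose by 3.70, and LIF and its receptor LIFR fell by 1.21 and 1.13. Of 39 interferon-stimulated genes tested, 9 were higher and 9 lower (23.1% each way, near the 20.0% and 20.5% of all genes). Among those higher, the antigen presentation genes PSMB8, PSMB9, B2M and TAP1 rose by 2.01, 2.46, 1.33 and 0.41, and the regulator IRF1 by 1.54. PSMB9, an immunoproteasome subunit, had 189 and 137 in OSK, 33.7 and 24 in Sox2, 219 and 274 in Oct4, 252 and 210.2 in Klf4 and 56.6, 19.2 and 25.3 in GFP, with Sox2 and the control low. Among those lower, the antiviral genes IFI6, ISG15 and OAS3 fell by 2.38, 1.74 and 1.51. These genes were picked from the list after their values were seen, and a division of the list by role was not tested. IFI6 had 217 and 302 in OSK, 1177 and 1524 in Sox2 and 128, 139.6 and 102 in GFP. Sox2 replicate 2 was above Sox2 replicate 1 for several of these genes, for example ISG15 at 166 and 335 and OAS1 at 5.61 and 50.5, and OAS1 did not pass.

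In the factors' own families, KLF3, a repressor of the KLF family, had 9555 and 9313 normalised counts in OSK, 940.2 and 916 in Sox2, 1047, 1093 and 1008 in GFP, 910.4 and 822 in Oct4 and 6782 and 6973 in Klf4. OSK was above Klf4 and both were above the rest, and KLF3 rose by 3.34 on the log2 scale (SE 0.07, adjusted p = 3.79e-14), the smallest adjusted p among the named genes. KLF9 rose by 2.00, KLF7 fell by 1.05 and KLF5 by 0.80. In the KLF family 5 were higher and 5 lower of 13 (38.5% each way), and in the SOX family 3 and 3 of 10 (30% each way). Over all genes the shares were 20.0% higher and 20.5% lower. SOX9, a factor of RPE and progenitor cells, had 2035 and 2172 in OSK, 707 and 694 in Sox2, 1511, 1651 and 1752 in GFP and 4259.9 and 3891 in Klf4 and rose by 1.58 (SE 0.09, adjusted p = 8.99e-10). SOX6 fell by 1.82, from 167 and 213 in Sox2 to 56.4 and 49.5 in OSK. Among 21 ion and water channel genes 6 were higher (28.6%) and 8 lower (38.1%). SCNN1A, the alpha subunit of the sodium channel, rose with SCNN1B, at 143 and 121 in OSK, 25.8 and 7.71 in Sox2 and 317 and 312 in Klf4. Cholesterol genes divided into 6 higher (24%) and 7 lower (28%) of 25, near the shares of all genes. Fewer of them were lower without Sox2 replicate 2. SREBF2, the transcription factor of the pathway, rose by 0.79. Of 35 DNA methylation and Polycomb genes 6 were higher (17.1%) and 12 lower (34.3%), with fewer lower without Sox2 replicate 1. BMI1 and RNF2 of Polycomb complex 1 fell by 0.99 and 0.96, and TDG, the thymine glycosylase of active demethylation, by 1.02.

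The difference of OSK from Sox2 was set beside the effects of Klf4 and of Oct4 alone on the control line, which share no library with it. Across the 18828 genes the fitted log2 differences of OSK minus Sox2 and of Klf4 minus GFP had Pearson's r of 0.315 and Spearman's rho of 0.244. With Oct4 minus GFP r was -0.173 and rho -0.204. These are correlations over genes, which are not independent replicates, and are given as a description. The size of r with Klf4 depended on the filter and the tool, being 0.111 with no filter, 0.135 in edgeR on recovered reads and 0.427 at a mean CPM of at least 1, and that with Oct4 was -0.281 in edgeR and -0.103 without GFP replicate 1. Genes called in both comparisons numbered 3768 for Klf4, which is 49.4% of the OSK against Sox2 calls and 59.7% of the Klf4 calls, and 2833 of them (75.2%) had the same direction. For Oct4 they numbered 3939, which is 51.7% and 56.1% of the respective calls, and 1322 (33.6%) had the same direction. Of the genes higher in OSK than in Sox2, 1044 (27.7%) were higher in Klf4 only, against 11.6% of all genes tested, 346 (9.19%) in Oct4 only, against 14.1%, 423 (11.2%) in both, against 5.95%, and 1951 (51.8%) in neither, against 68.3%. Of the genes lower in OSK, 1052 (27.3%) were lower in Klf4 only, against 10.5% of all genes tested, 239 (6.20%) in Oct4 only, against 11.8%, 314 (8.14%) in both, against 5.44%, and 2251 (58.4%) in neither, against 72.3%.

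**Figure D4:**
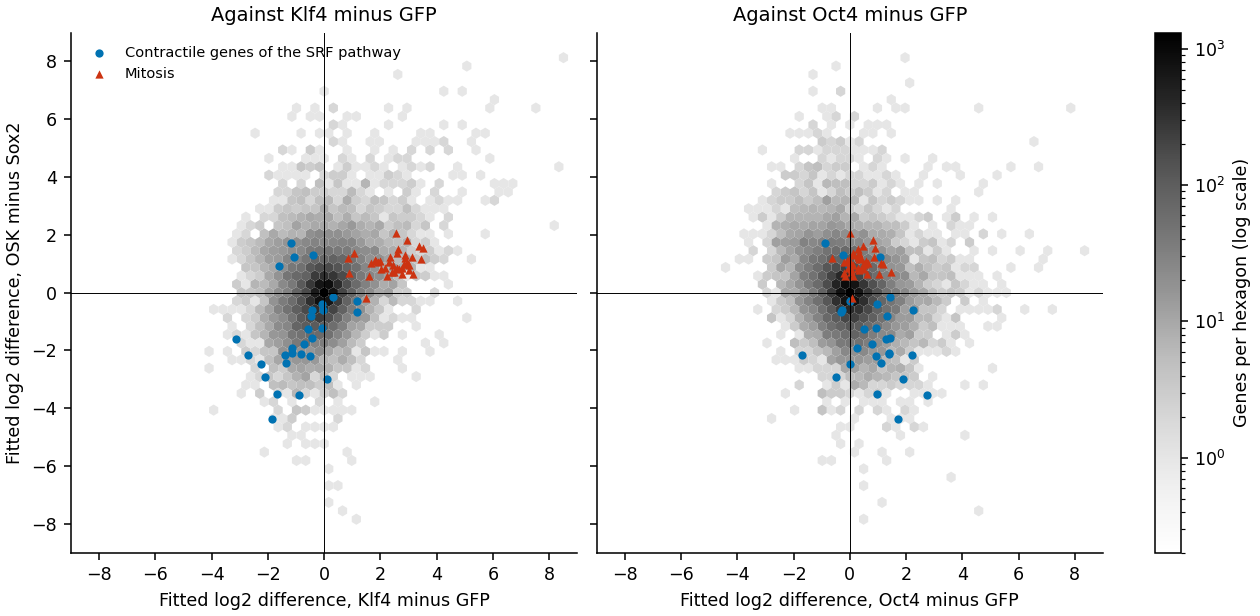
Fitted log2 difference of OSK minus Sox2 (vertical) against Klf4 minus GFP (left) and Oct4 minus GFP (right) for the 18828 genes tested, as counts per hexagon on a log grey scale. Blue points are contractile genes and red triangles mitosis genes. Contractile genes lie mostly at lower left against Klf4 and at lower right against Oct4, and mitosis genes lie mostly at upper right against Klf4 and nearer to the vertical 0 line against Oct4.

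The differences were also tested against each other. For 5656 genes (30.0%) OSK minus Sox2 differed from Klf4 minus GFP, 2520 (13.4%) being above it and 3136 (16.7%) below, and for 8358 genes (44.4%) it differed from Oct4 minus GFP, 3913 (20.8%) above and 4445 (23.6%) below. NFATC2 and CGN showed no detectable difference from the Klf4 effect, at 0.60 (SE 0.40, adjusted p = 0.286) and 0.41 (SE 0.24, adjusted p = 0.218). KRT13 and FLG rose by more than in Klf4, by 2.04 (adjusted p = 0.000216) and 1.64 (adjusted p = 0.0141). UNC5B-AS1, TK1 and ASPM rose by less, with differences of -2.33, -1.71 and -1.10 (adjusted p = 6.86e-05, 7.47e-05 and 0.00294). Sox2 alone was above GFP for these genes, by 0.90, 2.06 and 1.22. Measured from GFP, they rose by 8.06, 3.53 and 3.06 in OSK and by 9.49, 3.17 and 2.94 in Klf4. TAGLN fell by more than in Klf4, with a difference of -2.51 (adjusted p = 4.98e-05), and in Oct4 alone it was higher than in GFP, by 1.71. TAGLN was also higher in Sox2 than in GFP, by 1.88. Measured from GFP, its log2 difference was -2.48 in OSK and -1.85 in Klf4. CDH11 and SPINT1 were on the side of Oct4. CDH11 was 1.78 higher in Oct4 than in GFP (adjusted p = 4.87e-10) and at -0.15 in Klf4 (adjusted p = 0.237), with a difference between its OSK and Oct4 effects of 0.18 (SE 0.14, adjusted p = 0.309). A p above the threshold does not show that effects are equal.

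The factors' own motifs were counted in promoters of higher and of lower genes. The KLF motif (GGGNGTGG, both strands) was in 19.8% of 4140 promoters of genes higher in OSK, in 20.1% of 4430 promoters of genes lower in OSK and in 19.2% of all. The SOX motif (ACAANG, both strands) was in 24.7%, 24.2% and 24.6%, and the octamer recognised by Oct4 (ATGCAAAT, both strands) in 1.57%, 1.17% and 1.32%. Among genes with a log2 difference of at least 2, with 543 promoters of higher and 374 of lower genes, the KLF motif was in 21.2% and 20.1%, the SOX motif in 28.5% and 32.1% and the octamer in 2.21% and 3.21%. The median GC content of these promoters was 61.6% and 63.6%, and its part in the shares was not tested. The table held 72.1% of the higher and 74.8% of the lower genes, and the median GC content of all their promoters was 63.6% and 66.0%. No match in these 250 bases says only that the letters are not there, since these factors also bind outside promoters.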

How the data were processed

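Values are the authors' deposited normalised read counts, a signal per gene: by their steps, counts divided by a factor per library and rounded. The submitters' processing notes name STAR 2.7.1a and featureCounts 1.6.2 and the builds GRCh38 and GRCm38, with no role given. The annotation and the use of strand in counting are not given in the sources used here. Whole reads were recovered from each library's step. For 100% of values up to 200, the deposited value lay within 0.0061 normalised counts of a whole number of reads times the step. The share over all values was also 100%, with a tolerance that widened for larger values.

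The 18828 genes that reached a value of 10 in 2 or more of the 11 libraries were tested with limma 3.58.1 in R 4.3.3 on log2(value + 1), with group means over all libraries, a mean-variance trend and Benjamini-Hochberg adjustment (threshold 0.05, 6 residual degrees of freedom). Fold changes on this scale understate those of low genes. Ratios of genes with few reads were taken from recovered reads summed over a group, with 95% Clopper-Pearson intervals that cover counting error only. The fit was tested on simulated data. The alternatives were edgeR 4.0.16 and DESeq2 1.42.0 on recovered reads, other scalings, pseudocounts and filters, a replicate term, and leaving out libraries.

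Members and gene lists were chosen with earlier results of these data known. The genes named by rule are the delivered factors, the 10 largest rises and falls with a mean of at least 100 and no overlap between OSK and Sox2, and the largest changes of each list under the same conditions. Some genes that the rule or the lists hold are counted but not reported by name here. Other named genes were chosen after their values were seen. In 22 lists, 667 of 810 genes were tested. Replicate libraries differed by more than sampling noise.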

Additional observations from a re-analysis of the deposited data

How the results depend on the processing

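No gene called in either direction with all libraries was called in the opposite direction under any alternative run. The number of genes higher in OSK than in Sox2 ran from 2780 to 4182 when single libraries were left out and from 2768 to 4039 under the other alternatives, and the number lower from 2959 to 4165 and from 3251 to 4106. On recovered reads edgeR with TMM called 3597 higher and 3815 lower. The 405 list genes called became 351 to 436 and 369 to 440. Among the 71 genes named by rule, SOX2, RAB27A, KRT10 and HES4 lost their call under at least 1 alternative, with adjusted p of up to 0.0547, 0.148, 0.195 and 0.226 in limma, and none changed sign. With each single library left out, the lone remaining library is assumed to vary like the other groups.

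The correlation across genes with Klf4 minus GFP was 0.135 in edgeR with either scaling (0.1349 with TMM, 0.1347 with median-of-ratios factors), 0.144 in DESeq2, 0.361 with a pseudocount of 5, 0.111 with no filter, 0.427 at a mean CPM of at least 1, and 0.266 to 0.370 without single libraries. That with Oct4 minus GFP was -0.281 in edgeR with TMM (-0.2811 with median-of-ratios factors), -0.275 in DESeq2, and -0.201 to -0.103 without single libraries. The filters differ in how many low genes they keep, and the cause of the other shifts was not tested.

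No shared deviation of same-numbered libraries was seen, their correlation being -0.026 between OSK and Sox2. That value cannot show whether the libraries were prepared in pairs. With the replicate block 3633 genes were higher and 3696 lower, and the correlation with Klf4 minus GFP was 0.271. Groups of 2 libraries limit the precision of every value, and genes with few reads carry ratios with wide counting intervals.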
